A study of Mus musculus with 6 samples.

Results

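Cholesterol and fatty acid synthesis genes are described here as a set of 28 genes, chosen by symbol as genes of lipid synthesis that the sterol regulatory element binding proteins (SREBPs) are known to control. All 28 were found, among 55450 genes in the count tables of single libraries and among the 17500 genes of the table for the whole series. Of the 28 genes, 7 act from acetyl-CoA to farnesyl diphosphate, 11 from squalene to cholesterol, 5 sense, regulate or carry sterols, and 5 make fatty acids. The rule uses no measured value, but the choice was made with earlier results of the series known.

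Bulk RNA-seq was made of LT-HSCs, the long-term hematopoietic stem cells, which are rare cells that renew themselves and give rise to all blood lineages. All 6 came from wild-type male C57/Bl6 mice of 22 to 24 months, with cells gated as Lin-, Sca1+, cKit+, CD48- and CD150+. CD61 is integrin beta 3, a surface adhesion receptor subunit. The 3 CD61High libraries hold the 10% of LT-HSCs with the most CD61, the 3 CD61Low libraries the 10% with the least, and each library was made from 5000 sorted cells without any further treatment named in the labels. Mice 1, 2 and 3 each gave 1 library of each gate by title. The protocol calls the sorted cells a pool, so that the numbers could also stand for groups of animals. They are taken here as 3 animals. In fits without the mouse as a block, p-values rest on the spread between mice within a gate and ignore the pairing. In fits with the block, they rest on how the gate difference varies over the mice. Aged mice alone were sampled, so neither gate has a young counterpart here.

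Cholesterol and fatty acids are both built from cytosolic acetyl-CoA, which ATP citrate lyase makes from citrate. When membranes of the endoplasmic reticulum are poor in cholesterol, the escort protein SCAP carries SREBPs to the Golgi, where they are cut, and the released fragment enters the nucleus and switches on the genes of both pathways. When sterols are plentiful, INSIG proteins hold SCAP and the SREBPs back. SREBP2, from Srebf2, acts mainly on cholesterol genes and SREBP1, from Srebf1, mainly on fatty acid genes. On promoters, SREBPs bind sterol regulatory elements and typically act beside the factors NF-Y and Sp1. Dividing blood cells need both products for new membranes, while LT-HSCs are mostly quiescent.

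Promoter windows were available in RefSeq (build GRCm38.p6) for 23 of the 28 genes, as 29 windows of 300 bases that run from 250 bases before a transcription start to 50 bases after it. Scd2, Stard4, Fdft1, Fdps and Sqle had no window. The windows were searched on both strands for 4 motifs, which are TCACNCCAC (a sterol regulatory element core), CCAAT (the NF-Y box), GGGCGG (the Sp1 box) and CACGTG (an E-box, which SREBPs can also bind and which reads the same on both strands). The CCAAT letters were in 20 of the 29 windows (69.0%), against 37.4% of all 32851 windows in the table and 37.5% of the 14004 windows of genes tested here. The GGGCGG letters were in 22 windows (75.9%), against 35.7% of all windows and 59.8% of those of tested genes. The E-box was in 6 windows (20.7%, against 7.15% and 9.75%), those of Dhcr7, Hsd17b7, Insig1, Sc5d and Scap. The sterol regulatory element core was in 1 window (3.45%, against 1.24% and 1.14%), that of Hmgcs1. Acaca and Elovl6 held none of the 4 motifs. These are matches of letters and were not tested as binding sites.

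The windows of 4 genes are shown, with the motif letters in capitals on whichever strand they lie. Acat2, Nsdhl and Dhcr7 had the smallest unadjusted p-values of the 28 genes in the fit with the mouse as a block, described below. Hmgcs1 was added after the search because it alone held the sterol regulatory element core. Acat2 (chr17:12960676-12960975, minus strand) held 1 Sp1 box and no CCAAT. Nsdhl (chrX:72918271-72918570, plus strand) held 4 NF-Y boxes and 1 Sp1 box. Dhcr7 (chr7:143829964-143830263, plus strand) held 2 NF-Y boxes and 3 Sp1 boxes in the window shown, 1 of its 3. Hmgcs1 (chr13:119690101-119690400, plus strand) held the sterol regulatory element core, 4 NF-Y boxes and 3 Sp1 boxes.
Acat2: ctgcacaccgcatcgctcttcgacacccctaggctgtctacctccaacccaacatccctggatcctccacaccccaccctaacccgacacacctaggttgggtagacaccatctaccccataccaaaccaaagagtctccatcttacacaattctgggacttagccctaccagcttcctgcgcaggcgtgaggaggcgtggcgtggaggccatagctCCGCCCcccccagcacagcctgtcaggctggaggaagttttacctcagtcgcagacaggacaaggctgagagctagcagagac
Nsdhl: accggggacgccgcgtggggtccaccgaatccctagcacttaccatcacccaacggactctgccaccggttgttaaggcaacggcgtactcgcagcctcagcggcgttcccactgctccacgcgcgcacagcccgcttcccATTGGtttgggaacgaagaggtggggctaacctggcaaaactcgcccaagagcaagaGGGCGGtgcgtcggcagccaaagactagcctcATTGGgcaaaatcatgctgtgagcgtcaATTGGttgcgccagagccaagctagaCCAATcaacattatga
Dhcr7: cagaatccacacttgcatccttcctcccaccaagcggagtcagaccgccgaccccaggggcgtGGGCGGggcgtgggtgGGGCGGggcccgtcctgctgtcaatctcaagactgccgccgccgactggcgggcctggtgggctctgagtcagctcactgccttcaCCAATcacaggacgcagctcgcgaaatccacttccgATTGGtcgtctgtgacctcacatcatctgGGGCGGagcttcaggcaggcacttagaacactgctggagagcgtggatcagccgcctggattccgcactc
Hmgcs1: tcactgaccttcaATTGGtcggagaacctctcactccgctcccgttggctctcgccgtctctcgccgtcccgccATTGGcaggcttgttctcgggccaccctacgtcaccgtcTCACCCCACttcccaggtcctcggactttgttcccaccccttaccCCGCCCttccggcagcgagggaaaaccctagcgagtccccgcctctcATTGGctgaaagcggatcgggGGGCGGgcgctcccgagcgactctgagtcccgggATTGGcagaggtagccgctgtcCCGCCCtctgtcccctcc

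The libraries held 21354130 to 26398090 counts on genes, and levels are given as CPM, counts brought to one library total with TMM factors (0.767 in CD61Low of mouse 2, the lowest, to 1.11). The 10 LT-HSC markers checked, among them Kit, Slamf1 (CD150) and Procr, all reached 1 CPM in each of the 6 libraries. Their summed share of counts was 0.415%, 0.20% and 0.433% in CD61High of mice 1, 2 and 3 and 0.563%, 0.128% and 0.591% in CD61Low. With the mouse as a block, 2 of the 10 were called lower in CD61High by edgeR, Procr (log2 fold change -1.25, adjusted p = 0.0436) and Ly6a, which encodes Sca1 (-1.34, adjusted p = 0.0446). Of all genes, 0.256% were called in either direction. The log2 fold change with the block was below 0 for 7 of the 10 markers and above 0 for 3. In 3 of 3 mice, 4 markers were lower in CD61High and 1 was higher, Ctnnal1 (0.99 with the block, edgeR adjusted p = 0.062). Transcripts of 20 genes used as markers of neutrophils, cells that the gates should leave out, were also present. They took 0.591%, 7.53% and 0.0535% of counts in CD61High and 2.26%, 12.1% and 0.233% in CD61Low, so that mouse 2 stood apart and CD61High was lower in each mouse. In CD61High of mouse 3, Prtn3 and Padi4 held 4240 and 2761 of the 13385 counts, and Mpo 11. Which cells these transcripts came from was not tested. The 12 erythroid markers ran from 0.311% to 3.01%, the 10 monocyte markers from 0.0414% to 1.44% and the 12 B lineage markers from 0.00519% to 0.108%, each highest in CD61Low of mouse 2. Mouse 3 had the lowest shares, with the neutrophil gene Ctsg at 0 in CD61High and the B lineage genes Igll1 and Rag1 at 0 in both gates. In bulk libraries, fewer cells of a type and less RNA per cell cannot be told apart.

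The lipid synthesis genes were expressed over a wide range of levels, compared here as mean CPM per kb of annotated exon over the 6 libraries. Acly, ATP citrate lyase, was highest at 78.8 CPM per kb, followed by Scd2, a desaturase that makes monounsaturated fatty acids, at 54.2, Srebf2 at 43.7, Srebf1 at 25.3 and the sterol isomerase gene Ebp at 23.5. The neighbours Acly and Scd2 overlapped in their libraries only because Acly was low in CD61Low of mouse 2, whereas the ranges of Scd2 and Srebf2, and of Srebf1 and Ebp, overlapped broadly in the plot of levels. At the low end were Idi1 (1.48), Tm7sf2 (1.00), Acaca (0.663) and Fdps (0.193). Acaca encodes the acetyl-CoA carboxylase that commits acetyl-CoA to fatty acids, and its annotated exons add up to 17.1 kb, which lowers a level per kb.

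**Figure D1:**
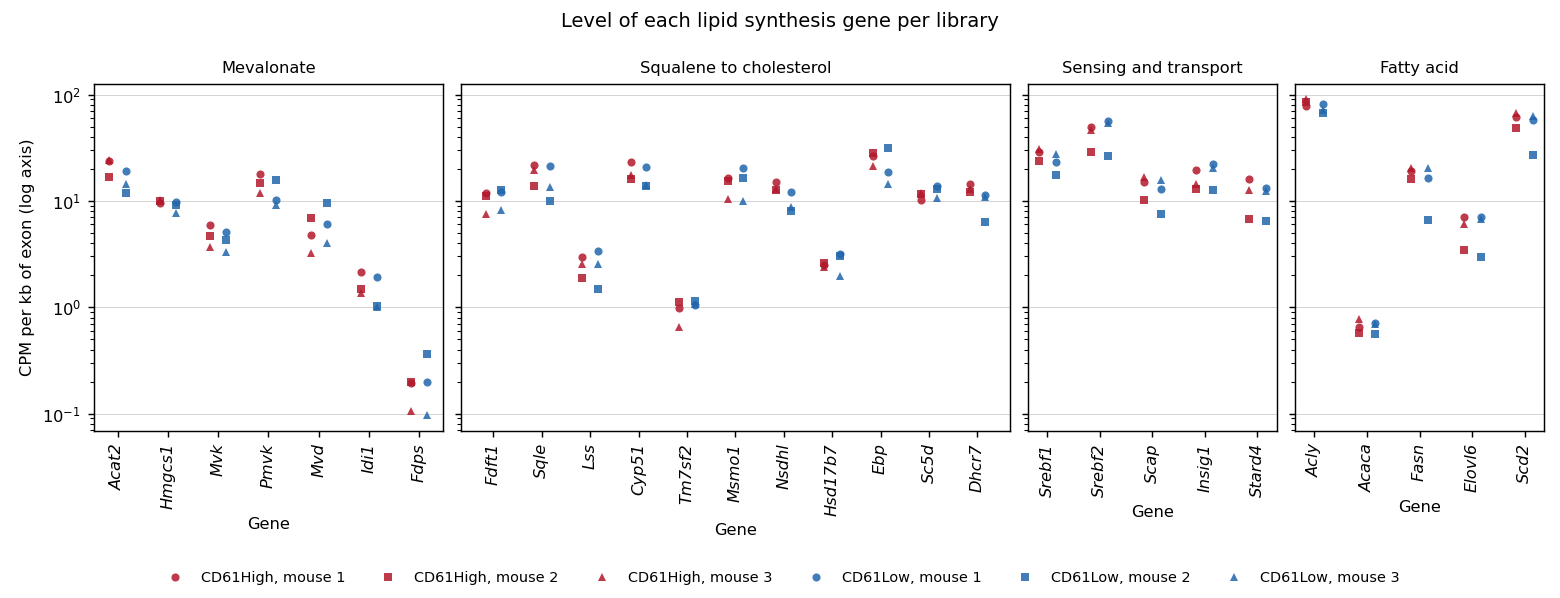
Level of each of the 28 genes in each library, as CPM per kb of annotated exon on a log axis, in 4 panels by role. Red marks are CD61High and blue marks CD61Low libraries, with a circle, square and triangle for mice 1, 2 and 3. The marks of the gates overlap for 26 genes, and Fdps lies far below the rest at a mean of 0.193.

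The very low value of Fdps, which encodes farnesyl diphosphate synthase (ENSMUSG00000059743.12, chromosome 3, 89093588 to 89101959, minus strand, GRCm38), has a limit set by the annotation. Its 6 counts were 19, 19 and 12 in CD61High of mice 1, 2 and 3 and 23, 31 and 11 in CD61Low. In GENCODE M21, 85.9% of its coding bases also lie in exons of the overlapping gene model Gm43738, and unstranded counting gives a read on exons of 2 genes to neither. The part of this overlap in the low counts was not tested, so the level and its difference between gates are not read as those of the transcript. The same overlap held for 35.1% of coding bases of Hmgcs1 (with Gm48342), 20.5% of Scap (with 5830462I19Rik) and 8.46% of Lss. Acat2 shares 39.1% of its 50-base words with other genes (Acat3 and Tcp1), and Acaca 30.4%, Fdft1 26.5% and Idi1 25.3%. Reads that map to several places are left out of the counts, so those genes may rest more on their unshared stretches. How many of their reads were lost in this way was not tested.

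No lipid synthesis gene passed the test between the gates. Without a block, edgeR's quasi-likelihood test called 0 of the 28 genes at an adjusted p under 0.05, where 0% of the 15610 genes tested were called. None of the 28 had an unadjusted p under 0.05, against 6.55% of all genes, and the lowest adjusted p was 0.752, for Nsdhl. With the mouse as a block, 0 of 28 were called against 0.256% of all genes, and the lowest adjusted p was 0.133, for Acat2. At an unadjusted p under 0.05 the block had 4 of the 28 genes (Acat2, Nsdhl, Dhcr7 and Srebf1), against 20.8% of all genes. The median log2 fold change of the 28 genes, CD61High minus CD61Low, was 0.15 without and 0.15 with the block, beside -0.05 and -0.02 for all genes tested.

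Other tests called more genes of the table but none of the lipid synthesis genes. DESeq2 called 0 of the 28 without the block, against 1.52% of all genes, and 0 of 28 with it, against 10.0% of all genes, where the lowest adjusted p was 0.0729, for Acat2. With limma voom and the block it was 0 of 28 against 3.13%. After both libraries of mouse 2 were left out, edgeR called 0 of 28 without the block (0.855% of all genes) and 0 of 28 with it (4.77%).

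The intervals show how large a difference these 6 libraries leave room for. With the block, the 95% interval of the log2 fold change lay between -1 and 1 for 25 of the 28 genes, against 57.6% of all genes and 78.4% of the 11088 genes with a mean of at least 5 CPM. Idi1, Fdps and Fasn were the exceptions. Without the block this held for 12 of 28 (42.9%), against 40.6% of all genes and 55.7% of those of at least 5 CPM. Smaller differences were not detectable at this number of mice where the interval spans 0.

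By sign alone, 12 of the 28 genes were higher in CD61High in 3 of 3 mice, where 20.6% of all genes were, and 3 were lower in 3 of 3 (Fdft1, Mvd and Tm7sf2), where 24.7% of all genes were. The other 13 had mixed signs. Every CD61High library lay above every CD61Low library for 2 genes, Nsdhl and Dhcr7, against 8.62% of all genes, and for 0 genes lay below, against 5.71%. The median difference over the 28 genes was 0.01, 0.11 and 0.15 in mice 1, 2 and 3. For comparison, 18 DNA replication genes had medians of 1.25, 0.07 and 1.85 and took 0.45%, 0.533% and 0.526% of counts in CD61High and 0.195%, 0.420% and 0.164% in CD61Low. The difference between the lists was not tested.

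**Figure D2:**
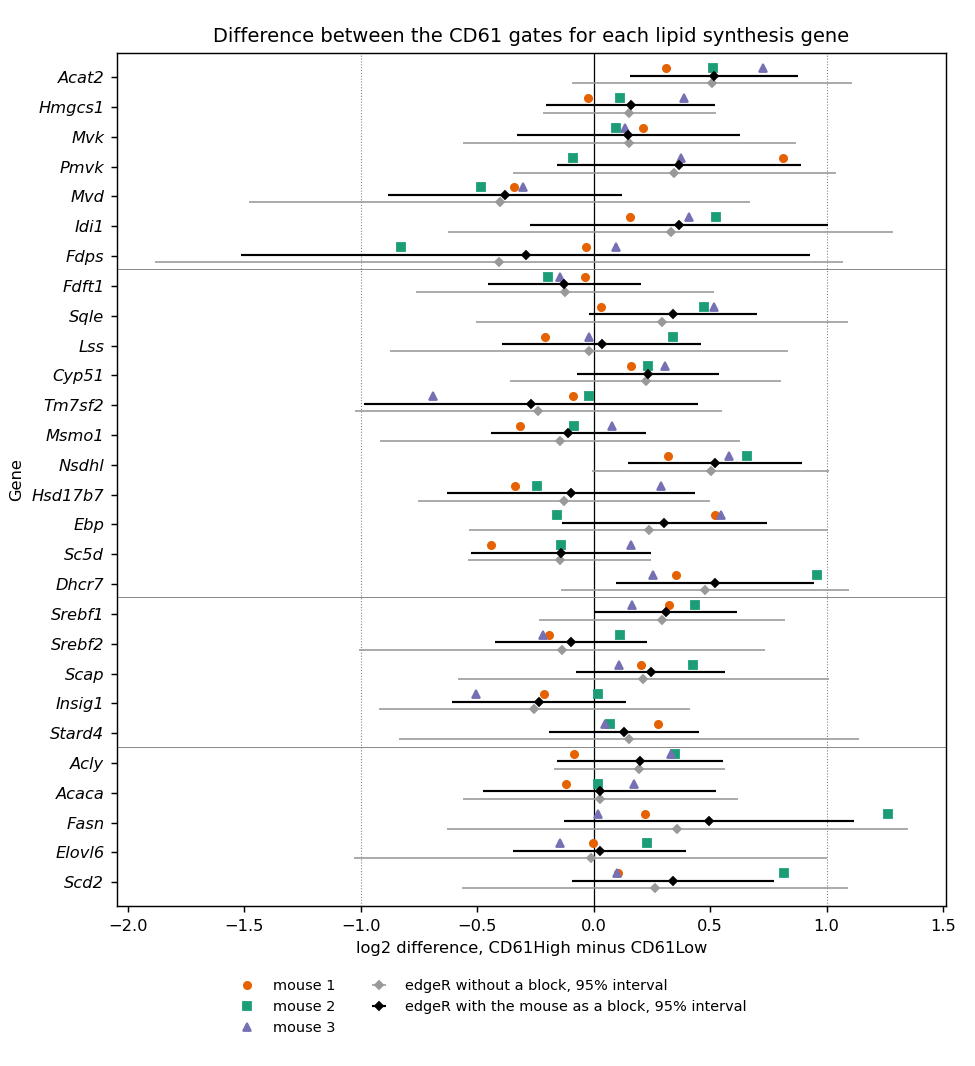
Log2 difference between the gates for each of the 28 genes, CD61High minus CD61Low, in the order of the pathways with lines between the 4 roles. Coloured marks are the mice, grey diamonds the edgeR value without a block and black diamonds that with the mouse as a block, with bars for 95% intervals and dotted lines at -1 and 1. Acat2, Nsdhl, Dhcr7 and Srebf1 have black bars that do not reach 0, and none of the 28 was called after adjustment.

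Genes from acetyl-CoA to farnesyl diphosphate showed no called difference, and 3 of 7 were higher in CD61High in 3 of 3 mice and 1 lower. Acat2 encodes the cytosolic thiolase that joins acetyl-CoA units in the first step (ENSMUSG00000023832.14, chromosome 17, 12942890 to 12960747, minus strand, GRCm38). It had 60.1, 42.9 and 61.4 CPM in CD61High of mice 1, 2 and 3 and 48.5, 30.0 and 37.0 CPM in CD61Low. Each mouse was higher in CD61High, while the groups overlapped because CD61High of mouse 2 lay below CD61Low of mouse 1. The means were 54.8 ± 10.4 and 38.5 ± 9.32 CPM (SD, n = 3). With the block the log2 fold change was 0.52 (SE 0.15, 95% interval 0.16 to 0.88, edgeR adjusted p = 0.133), and without it 0.51 (SE 0.25, adjusted p = 0.76).

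Hmgcs1, the synthase that makes HMG-CoA, had 44.3, 45.4 and 46.7 CPM in CD61High and 45.1, 42.0 and 35.6 CPM in CD61Low. Its blocked log2 fold change was 0.16 (95% interval -0.20 to 0.52), with log2 differences of -0.03, 0.11 and 0.39 in mice 1, 2 and 3. Mvd, whose enzyme decarboxylates mevalonate diphosphate, had 8.86, 12.7 and 5.98 CPM in CD61High and 11.3, 17.8 and 7.41 CPM in CD61Low. It was the gene of these 7 that was lower in CD61High in each mouse (blocked log2 fold change -0.38, SE 0.21, edgeR adjusted p = 0.348). The kinases Mvk and Pmvk and the isomerase Idi1 had 3.54 to 30.5 CPM, with blocked log2 fold changes of 0.15, 0.37 and 0.37. Pmvk went from 0.81 in mouse 1 to -0.09 in mouse 2, a spread wider than its mean difference.

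None of the 11 genes from squalene to cholesterol was called, and their median log2 fold change with the block was 0.03. For 2 of them, Nsdhl and Dhcr7, every CD61High library lay above every CD61Low library. No other gene of the 28 did so, against 8.62% of all genes. Nsdhl encodes the dehydrogenase that helps remove methyl groups from the sterol ring (ENSMUSG00000031349.4, chromosome X, 72918557 to 72958514, plus strand). It had 42.7, 36.5 and 37.1 CPM in CD61High and 34.2, 23.1 and 24.8 CPM in CD61Low, with no overlap of the gates. The means were 38.8 ± 3.40 and 27.4 ± 5.98 CPM (SD, n = 3), and the blocked log2 fold change was 0.52 (SE 0.16, 95% interval 0.15 to 0.89, edgeR adjusted p = 0.140). Dhcr7 encodes the reductase of the last step of a main branch of the pathway (ENSMUSG00000058454.15, chromosome 7, 143823145 to 143848410, plus strand). Its levels were 84.0, 71.1 and 75.8 CPM in CD61High and 65.8, 36.5 and 63.5 CPM in CD61Low. The gates did not overlap here either, and the difference was largest in mouse 2, at 0.96 against 0.35 and 0.25 in mice 1 and 3. The blocked log2 fold change was 0.52 (SE 0.18, edgeR adjusted p = 0.178). Without a block it was 0.48 over all 6 libraries. It was 0.25 once CD61Low of mouse 2 was left out, with CD61High of mouse 2, the lowest of its gate, kept. Neutrophil markers took 12.1% of counts in CD61Low of mouse 2. The part of those transcripts was not tested.

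Sqle, the squalene epoxidase and a rate-controlling enzyme of the pathway, had 121, 76.9 and 107 CPM in CD61High and 119, 55.3 and 74.8 CPM in CD61Low. It was level between the gates in mouse 1 (0.03) and higher in CD61High in mice 2 and 3 (0.47 and 0.52). Its unblocked value was 0.30, and 0.07 once CD61Low of mouse 2 was left out, with CD61High of mouse 2, the lowest of its gate, kept. Cyp51, the lanosterol demethylase, was higher in each mouse by 0.16, 0.23 and 0.30 (blocked 0.23, SE 0.13). Fdft1, the squalene synthase, had 50.4, 46.7 and 31.5 CPM in CD61High and 51.7, 53.6 and 34.8 CPM in CD61Low. Its differences were all small and below 0, at -0.04, -0.20 and -0.14 on the log2 scale. Lss, Msmo1, Hsd17b7, Ebp and Sc5d, which encode a cyclase, an oxygenase, a reductase, an isomerase and a desaturase of the route, had mixed signs over the mice, with blocked log2 fold changes from -0.14 (Sc5d) to 0.30 (Ebp).

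Tm7sf2, a sterol reductase acting after Cyp51, had 4.35, 4.93 and 2.88 CPM in CD61High and 4.63, 5.00 and 4.69 CPM in CD61Low. It was lower in each mouse, at -0.69 in mouse 3 and -0.02 in mouse 2, and its blocked value was -0.27 (SE 0.30). The lamin B receptor gene Lbr encodes the other enzyme with this activity and was looked up after its values were seen. Its mean level was 164 CPM per kb against 1.00 for Tm7sf2. Lbr had 501, 1249.9 and 479.6 CPM in CD61High and 604, 1491 and 350.1 CPM in CD61Low, so that both libraries of mouse 2, the ones with the largest neutrophil share, were the highest. The part of neutrophil transcripts in these values was not tested.

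The regulators include the genes for both SREBPs, and neither was called. Srebf1 (ENSMUSG00000020538.15, chromosome 11, 60199089 to 60222581, minus strand) had 163, 133 and 174 CPM in CD61High and 130.1, 98.2 and 156 CPM in CD61Low. It was higher in CD61High in each mouse, with overlapping groups, and the blocked log2 fold change was 0.31 (SE 0.13, 95% interval 0.00 to 0.62, edgeR adjusted p = 0.238). Its unblocked value was 0.29, and 0.14 once CD61Low of mouse 2 was left out, with CD61High of mouse 2, the lowest of its gate, kept. Within mice 1 and 3 the log2 differences were 0.33 and 0.17. Srebf2 had 355, 206 and 337 CPM in CD61High and 405, 191 and 391 CPM in CD61Low. It was lower in CD61High in mice 1 and 3 and higher in mouse 2, with a blocked log2 fold change of -0.10 (95% interval -0.42 to 0.23). The difference between Srebf1 and Srebf2 in their change was not tested.

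Scap, the SREBP escort, had 112, 75.6 and 126 CPM in CD61High and 97.0, 56.3 and 117 CPM in CD61Low, higher in each mouse (blocked 0.25, SE 0.13). Insig1, the retention protein and itself a classic SREBP target, had 59.8, 39.9 and 44.8 CPM in CD61High and 69.3, 39.4 and 63.6 CPM in CD61Low. Its blocked value was -0.23 (SE 0.16), with mouse 2 level at 0.02. Stard4, a carrier that moves cholesterol between membranes, had a blocked value of 0.13 (SE 0.13), and its levels ran from 36.2 to 90.1 CPM. Mouse 2 was the lowest mouse in both gates for each of the 5 regulators.

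The genes of fatty acid synthesis were also uncalled. Fasn, the fatty acid synthase, had 209.8, 174 and 225 CPM in CD61High and 179.9, 72.6 and 222 CPM in CD61Low. Its difference came almost entirely from mouse 2, at 1.26 against 0.22 and 0.02 in mice 1 and 3, and CD61Low of mouse 2 was the lowest library. The blocked log2 fold change was 0.50 (SE 0.25, 95% interval -0.13 to 1.12). Without a block it was 0.36 over all 6 libraries and 0.02 once that library was left out, with CD61High of mouse 2, the lowest of its gate, kept. Scd2 went the same way, with 339, 263 and 367 CPM in CD61High and 315, 149 and 343 CPM in CD61Low and differences of 0.11, 0.82 and 0.10. Its unblocked value turned from 0.26 to -0.03 once CD61Low of mouse 2 was left out. That fit kept CD61High of mouse 2, the lowest of its gate, so the value does not describe the difference within mice 1 and 3. Neutrophil markers took 12.1% of counts in CD61Low of mouse 2, and their part in the low values was not tested.

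Acly had 409, 449 and 474 CPM in CD61High and 434, 353 and 376 CPM in CD61Low, higher in CD61High in mice 2 and 3 (blocked 0.20, SE 0.15). Acaca lay between 9.60 and 13.4 CPM in all 6 libraries, with a blocked value of 0.03 (95% interval -0.47 to 0.52). Elovl6, an elongase of long-chain fatty acids, had 45.0, 22.4 and 39.1 CPM in CD61High and 45.0, 19.1 and 43.3 CPM in CD61Low. Mouse 2 was low in both gates, while the gates differed by at most 0.23 on the log2 scale in any mouse.

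The order of the mice was described for each gene, with no test because each number stands for 1 animal. The range of the 3 mouse means exceeded the mean gate difference for 24 of the 28 genes (85.7%), near the 79.8% of all genes tested, and a range over 3 means tends to exceed a difference between 2. Mouse 2 was the lowest mouse in both gates for 15 genes (53.6%, against 36.0% of all genes). Those were all 5 regulators, 4 of the 5 fatty acid genes, 5 of the 11 genes from squalene to cholesterol and 1 of the 7 before it. Mouse 3 was the lowest in both gates for 9 genes (32.1%, against 18.2%), of which 5 were among the 7 early genes (Mvk, Pmvk, Mvd, Idi1 and Fdps). Mouse 1 was the highest in both gates for 12 genes (42.9%, against 10.2%).

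The values of Srebf2, Scap, Stard4 and Elovl6 given above show the pattern of mouse 2, with ranges of the mouse means of 0.93, 0.89, 1.14 and 1.12 on the log2 scale beside gate differences of -0.10, 0.25, 0.13 and 0.03. Mvd went the other way, with mouse 2 highest and mouse 3 lowest in both gates and a range of 1.17. Neutrophil transcripts were highest in mouse 2 and lowest in mouse 3, as Mvd was, and 9 of the 10 LT-HSC markers were lowest in mouse 2 in both gates, as the regulators were. The part of other cells in these differences between mice was not tested.

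**Figure D3:**
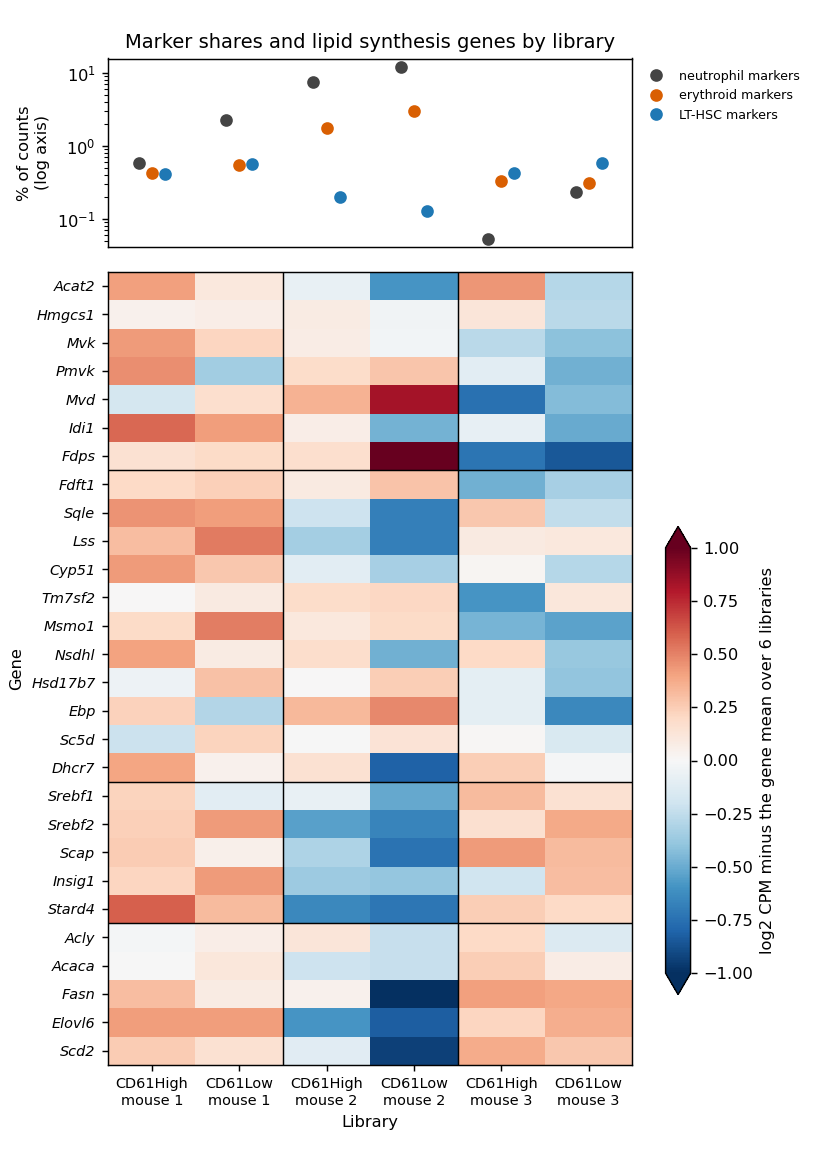
Upper panel, share of counts of neutrophil, erythroid and LT-HSC markers in each library on a log axis. Lower panel, log2 CPM of each gene minus its mean over the 6 libraries, with colours that end at -1 and 1, so that values beyond show the end colour, and lines between mice and between roles. The 2 libraries of mouse 2, where neutrophil markers took 7.53% and 12.1% of counts, are blue for the 5 regulators, while Mvd and Fdps are red in CD61Low of mouse 2.

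Other genes of lipid metabolism, taken from lists of general knowledge on the remaining sterol enzymes, sterol control, cholesterol uptake and export, fatty acid synthesis and fatty acid oxidation were compared in the same fits. Of 54 such genes 50 were tested, and in edgeR over all 6 libraries 0 passed without the block (0% of all genes) and 0 with it (0.256%). At an unadjusted p under 0.05 there were 2 of 50 without and 8 of 50 with the block, against 6.55% and 20.8% of all genes. Their median log2 fold change was -0.03 without the block. In 3 of 3 mice, 11 were higher in CD61High and 9 lower, against 20.6% and 24.7% of all genes. Other fits called 4 of the 50, which were Scd1, Mylip, Vldlr and, named after its values were seen, Lrp1. DESeq2 with the block called Mylip, Scd1 and Lrp1, where 10.0% of all genes were called. Limma voom with the block called Scd1 (3.13% of all genes). Vldlr was called by edgeR with the block and without mouse 2 (4.77% of all genes). Genes are named here by a rule, up to 3 per list with the smallest unadjusted p.

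Acat1, the mitochondrial counterpart of Acat2, had 236, 232 and 271 CPM in CD61High and 181, 189.6 and 174 CPM in CD61Low, without overlap (blocked 0.44, SE 0.13, edgeR adjusted p = 0.141). Acss2 makes cytosolic acetyl-CoA from acetate and had 104, 90.6 and 94.2 CPM in CD61High and 76.9, 52.5 and 75.6 CPM in CD61Low. Its gates did not overlap either, with a blocked value of 0.51 (SE 0.15, adjusted p = 0.13). Mcat, which loads malonyl groups for mitochondrial fatty acid synthesis, had a blocked value of 0.39 (SE 0.13). Acat1, Acss2 and Mcat were the 3 of the 50 genes with every CD61High library above every CD61Low library, against 8.62% of all genes. Nr1h3, described below, was the 1 with every CD61High library below, against 5.71%. Coq2 (coenzyme Q synthesis) and Erlin1 (sterol-dependent protein turnover) were higher in each mouse, with blocked values of 0.27 and 0.25, and Dhdds (dolichol synthesis) was at -0.06.

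Scd1, the desaturase closest to Scd2, differed the other way, with 9.85, 29.1 and 9.53 CPM in CD61High and 31.8, 54.0 and 16.3 CPM in CD61Low. It was lower in CD61High in each mouse (blocked -1.11, SE 0.23, edgeR adjusted p = 0.0769). With the block, the Scd1 log2 fold change was called by DESeq2 (adjusted p = 0.00083) and by limma voom (adjusted p = 0.0457). The neutrophil share was lower there in each mouse too and highest in mouse 2, as Scd1 was, and its part was not tested. Mylip encodes a ubiquitin ligase that sends lipoprotein receptors to degradation. Mylip had 19.6, 30.9 and 18.4 CPM in CD61High and 32.4, 48.8 and 30.8 CPM in CD61Low, with log2 differences of -0.72, -0.66 and -0.74 (blocked -0.71, SE 0.15, adjusted p = 0.0786). With the block, the Mylip log2 fold change was called by DESeq2 (adjusted p = 0.0023) and not by limma voom (adjusted p = 0.0559). Nr1h3 encodes a liver X receptor and had a blocked value of -0.66 (SE 0.28). The cholesterol exporters Abca1 and Abcg1, both known targets of these receptors, were at -0.32 (SE 0.17) and 0.23 (SE 0.14). Vldlr, a lipoprotein receptor, was lower in CD61High in mice 1 and 3 (-0.77 and -0.97) and higher in mouse 2 (0.36), and of the settings run it was called only by edgeR with the block and without mouse 2. The oxidation genes Slc25a20, Acadvl and Hadhb had blocked values of 0.32, 0.17 and 0.17, and 0 of the 9 tested genes of that list had an unadjusted p under 0.05.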

How the data were processed

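The authors deposited unnormalized counts of reads per gene, as 1 table per library and 1 for the series, made with STAR 2.7 per the submitters' processing notes, which also name MultiQC and edgeR. Neither build nor annotation is given in the sources used here. All 55450 identifiers matched GENCODE M21 (GRCm38), and 0 values differed between the tables. Per the labels' protocols, cDNA came from 4 ng of RNA with SMART-Seq v4, and libraries from 1 ng of cDNA with Nextera XT. The unstranded column was used, since 49.9% to 50.0% of stranded counts lay on the first strand. Lines that name no gene stayed out (unmapped 4.36% to 10.9%, multimapping 10.0% to 15.6%, outside genes 2.88% to 4.21%, ambiguous 3.55% to 4.37%). A count of 0 allows 3 counts, or 0.114 to 0.140 CPM, counting error only. No libraries agreed within sampling noise (lowest chi-square per degree of freedom 44.8).

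The test was the robust quasi-likelihood F-test of edgeR 4.0.16, run under R 4.3.3 (TMM, filterByExpr by group, two-sided, Benjamini-Hochberg over 15610 genes, called at an adjusted p under 0.05), without a block and with the mouse number as a block, and checked on simulated data. Standard errors and 95% intervals come from the F statistic. Log2 CPM values have a prior count of 2. By title, libraries that share a number share an animal. Their deviations from the group means correlated at 0.236, 0.806 and 0.761 in mice 1, 2 and 3, against -0.823 to 0.374 between mice. The value of mouse 1 thus lay below the highest between mice. Deviations from a group mean cancel out within a gate, which lowers values between mice, so the pairing is not tested by them. Alternatives were DESeq2 1.42.0, limma 3.58.1 voom, other scalings and filters, and leaving out libraries or mice. All 28 genes are named, and up to 3 others per list by unadjusted p at a mean of at least 5 CPM. Promoters were those of genes with the smallest blocked p and a motif. Where a gene had several windows, the one with the most kinds of motif was shown. The genes, lists and rules were chosen with earlier results of these data known.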

Additional observations from a re-analysis of the deposited data

How the results depend on the processing

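No lipid synthesis gene was called in any of the 26 settings, the lowest adjusted p being 0.0729 (Acat2, DESeq2 with the replicate block). Without mouse 2 and with the block, the lowest was 0.0859 (Ebp). The median log2 fold change of the 28 genes was 0.15, beside -0.05 for all genes tested. It was 0.23 with library sizes alone (all genes 0.024) and 0.24 with library sizes and the replicate block (all genes 0.066). Leaving out libraries or mice gave 0.0017 at the lowest, lacking CD61Low of mouse 2, where the median of all genes was higher at 0.027. The highest was 0.25, lacking CD61Low of mouse 1, beside -0.065 for all genes. Both of these fits had no block and kept the CD61High library of the same mouse. Without both libraries of mouse 2 the median was 0.105, and 0.107 with the block, beside -0.028 and -0.032 for all genes. Of the 28 genes 15 kept their sign in every setting and 13 did not.

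Genes called over the whole table were 0 without a block in edgeR and limma voom on all 6 libraries. They were 40 with the replicate block, 88 with relative log expression factors and the block, 8 with upper-quartile factors and the block, 237 with DESeq2, 1566 with DESeq2 and the block, 489 with limma voom and the block, and 0 to 742 with libraries or mice left out (742 without mouse 2 and with the block). Of the other lipid metabolism genes, DESeq2 with the block called 3 (Mylip, Scd1 and, named after its values were seen, Lrp1), against 10.0% of all genes. Limma voom with the block called 1 (Scd1), against 3.13% of all genes. Fits with libraries or mice left out called 0 to 1 (Vldlr, without mouse 2 and with the block, against 4.77% of all genes). The paired analysis changed no other call.

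The Lss log2 fold change and the Elovl6 log2 fold change, at -0.02 and -0.01, turned to 0.034 and 0.025 with the replicate block, 0.011 and 0.0024 with relative log expression factors and the block, 0.024 and 0.015 with upper-quartile factors and the block, 0.0093 and 0.014 with library sizes alone, 0.12 and 0.11 with library sizes and the block, 0.0073 and 0.011 without the filter on low counts, and 0.010 and 0.0012 with DESeq2 and the block. Lss was 0.0037 with limma voom. The Dhdds log2 fold change (-0.07) turned to 0.024 with library sizes alone, with and without the block. With libraries or mice left out, values ran from -0.28 to 0.25 for Lss, -0.32 to 0.23 for Elovl6, -0.053 to 0.30 for Mvk, -0.18 to 0.43 for Stard4, -0.41 to 0.072 for Srebf2, -0.32 to 0.051 for Fdft1, -0.41 to 0.11 for Msmo1, -0.11 to 0.13 for Acaca, -0.77 to 0.15 for Fdps, -0.033 to 0.40 for Scap, -0.026 to 0.46 for Scd2, -0.15 to 0.054 for Dhdds, -0.30 to 0.010 for Sc5d and -0.34 to 0.023 for Hsd17b7. The cause was not tested. With 3 mice, and 11 to 31 counts for Fdps, small differences stay undetectable.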
